A study of Orbicella faveolata with 56 samples.

Results

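The 100 most abundant host transcripts of the Caribbean reef coral Orbicella faveolata were described in 55 RNA sequencing libraries. They were chosen by their measured level, as the 100 rows with the largest mean CPM over those libraries. CPM is the count of a row as a share of its library's total, scaled to the same fixed total in every library. They made up 0.114% of the 87440 rows of the table taken here as the host, whose row names begin with the species' initials. The study transplanted coral fragments between reef zones of the Florida Keys and asked, by its title, how heat tolerance differs between them. Whole coral tissue was sampled from 14 corals of 12 genotypes, each split into 4 fragments that went to an offshore or an inshore transplant site and were then kept at 32 °C or, as the control, at 30 °C. Temperatures were brought to their level over 7 days and held for 6 days. Of the corals, 6 were of offshore origin, each its own genotype (O1 to O6, corals C1 to C6) and all from 1 collection site. The other 8 were of inshore origin, with 6 genotypes from 3 collection sites, because corals A3, A5 and A6 all carried genotype In1. Of offshore origin there were 6 libraries for the offshore site at 32 °C, 6 for it at 30 °C, 5 for the inshore site at 32 °C and 6 for it at 30 °C. Of inshore origin there were 8 libraries for each of these 4 conditions.

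A coral is a colony of polyps that houses photosynthetic algae in its gut lining, and heat can break that partnership in what is called bleaching. In animal tissue a small set of messenger RNAs usually takes a large part of the transcript pool. In corals such RNAs commonly include those of ribosomal proteins, cytoskeletal proteins, the iron store ferritin and the fluorescent proteins related to GFP. Because a sequencing library has a fixed size, a very abundant transcript takes reads from all others, so its level bears on how every CPM is read. The files used here pair no identifier with a gene name, so none of the 100 transcripts can be assigned to these families, and no marker of a cell type could be checked. Members are called by their rank of mean CPM, with 1 the most abundant.

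CPM is not divided by transcript length, and no lengths were used here, so ranks order the transcripts by counts and not by molecules. The levels closed in on each other at the edge of the set. Rank 99 had a mean of 756.74 CPM, rank 100 had 756.73, and the first 2 rows left out had 756.20 and 746.53. In tissue that mixes many cell types, fewer cells of a type and less RNA per cell cannot be told apart.

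Host totals ran from 2850075 to 7239229 estimated counts per library with a median of 5021488. The members' median counts over the libraries had a median of 5374.5. By the mean correlation of log2(CPM + 1) with the other libraries, 8 of 55 libraries stood apart, over 3 median absolute deviations below the median, and the same 8 did when the 100 members were left out. They were A6 inshore 30 °C, B3 inshore 32 °C, B4 inshore 32 °C, B3 offshore 30 °C, B6 offshore 30 °C, B1 offshore 32 °C, C1 offshore 30 °C and C3 offshore 30 °C, where offshore and inshore name the transplant site. Library numbers 1 to 16 were all at 30 °C, so library number and temperature are partly confounded.

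The 100 rows took between 13.6% and 20.4% of all host counts, with a median of 16.6% and a mean of 16.5% ± 1.42 (SD, n = 55 libraries). The lowest share was in coral B4 at the inshore site at 32 °C, with a 95% Wilson interval of 13.5% to 13.6%. The highest was in coral B1 at the offshore site at 32 °C, with an interval of 20.4% to 20.5%. These intervals cover counting error alone and were at most 0.0815 percentage points wide, so the spread between libraries was far larger than counting error. Rank 1 alone held 1.45% on average, with a range from 0.940% to 2.29%. Ranks 1 to 10 held 2.96% to 9.34%, ranks 1 to 50 held 9.22% to 15.9% and ranks 1 to 1000 held 37.8% to 45.9%. The next 100 rows held 5.19% to 7.25%, with a mean of 5.87% ± 0.416 (SD, n = 55). By mean CPM, 1622 rows made up 50% of host counts.

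At the higher temperature the share did not move in one direction. Averaged per coral it was 0.27 percentage points lower at 32 °C than at 30 °C, with an SD of 1.22 over 14 corals, and it was higher at 32 °C in 6 of 14 corals and in 14 of 27 coral pairs. The coral changes ran from -2.38 points in C3 to 1.93 points in B1, so the mean was well within the spread between corals. In both of these corals rank 8, described below, differed widely between the offshore fragments. It had 7.01 CPM at 32 °C and 41858 CPM at 30 °C in C3, and 53977 CPM at 32 °C and 1114 CPM at 30 °C in B1. Among offshore-origin corals the change was -0.67 ± 1.44 points for fragments at the offshore site (SD, 6 corals) and 0.06 ± 1.55 for those at the inshore site (5 corals). Among inshore-origin corals it was 0.24 ± 1.44 points for offshore fragments and -0.42 ± 1.01 for inshore fragments (8 corals each). The next 100 rows changed by -0.06 ± 0.388 points (SD, 14 corals). Without the 8 libraries that stood apart the mean change over all corals was -0.10 points (12 corals with a pair). No p is given for the share, since it is a sum over rows chosen with these data.

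Between transplant sites the share was 0.37 ± 1.01 points higher at the offshore site (SD, 14 corals), with 8 of 14 corals and 16 of 27 pairs higher there. That difference too was smaller than the spread between corals. It was -0.01 ± 1.24 points in the 6 offshore-origin corals and 0.65 ± 0.746 points in the 8 inshore-origin corals, 6 of which were higher at the offshore site. Without the 8 libraries that stood apart the mean over all corals was -0.07 points, of the opposite sign.

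By origin, the mean share per genotype was 17.1% ± 0.518 over the 6 genotypes of offshore origin, against 16.5% ± 1.40 over the 6 of inshore origin (SD), a difference of 0.61 points. The inshore-origin genotypes were spread more widely and enclosed the range of the offshore-origin ones but for the highest, O3. This overlap depended on the choice of rows. With the 100 rows of largest median CPM, 96 of them members, all 6 offshore-origin genotypes lay above every inshore-origin one. The difference was then 1.10 points (pooled SD 0.513). Without the 8 libraries that stood apart it was 0.49 points, and 0 offshore-origin genotypes lay above the highest inshore-origin one. Genotype means ran from 17.9% ± 1.28 in O3 to 16.5% ± 1.203 in O1 among offshore-origin genotypes (SD, 3 and 4 libraries). Among inshore-origin genotypes, In4 had 17.8% ± 1.77, In6 17.7% ± 1.26 and In2 17.5% ± 0.481 (SD, 4 libraries each). In5 had 16.1% ± 0.334, In7 14.9% ± 0.879 and In1 14.8% ± 0.488 (SD, 4, 4 and 12 libraries). The 3 In1 corals had coral means of 14.9%, 15.2% and 14.5%, and the highest of their 12 libraries, at 15.96%, lay below all 4 libraries of In2 and of In4. In7 and In1 did not differ beyond their spread, nor did neighbours within the offshore-origin genotypes.

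**Figure D1:**
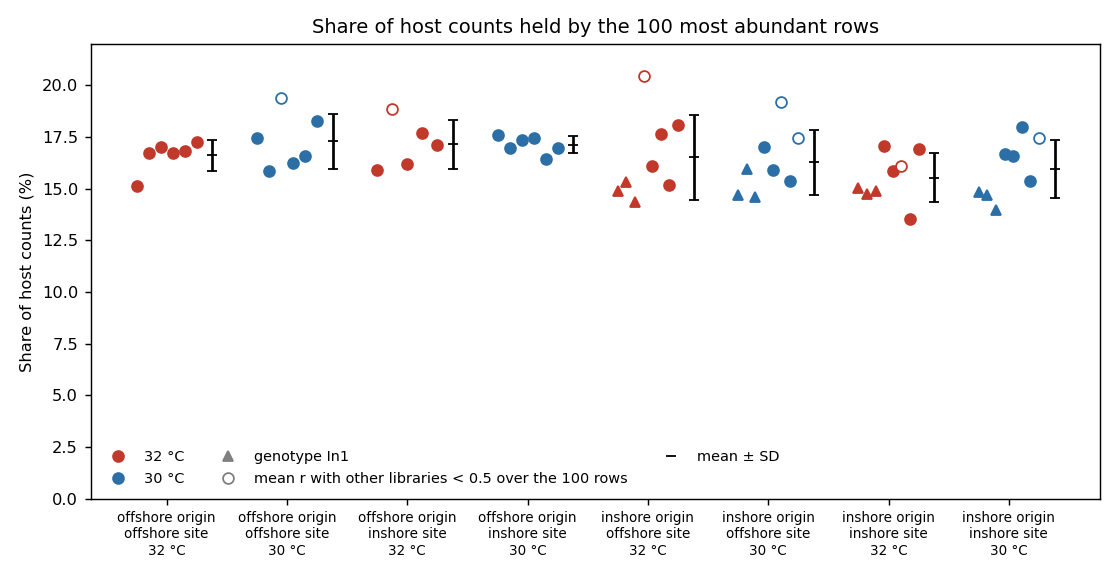
Share of host counts (%, y axis from 0) held by the 100 most abundant rows in each library, by origin, transplant site and temperature, with the mean and SD of each group as a bar. Triangles are the 12 libraries of genotype In1, which lie between 13.99% and 15.96%, and open symbols are 7 libraries whose correlation with the others over the 100 rows was under 0.5, among them the 4 highest shares.

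The 5 most abundant members varied to different degrees. Rank 1, OFAVBQ_DN213739_c6_g3, had 10358, 14437 and 19482 CPM as its lowest, median and highest library at 32 °C (27 libraries) and 9404, 13806 and 22895 CPM at 30 °C (28 libraries). The ranges overlapped almost entirely, and its fitted log2 change was 0.01 ± 0.069 (SE). Rank 2, OFAVBQ_DN218267_c1_g1, had 190.4, 5513 and 9426 CPM at 32 °C and 821, 6014 and 11517 CPM at 30 °C. Its lowest libraries, coral B4 at the inshore site at 32 °C and coral A6 at the inshore site at 30 °C, are both among those that stood apart. Rank 4, OFAVBQ_DN217768_c1_g1, had 1555, 5550.2 and 7391 CPM at 32 °C and 1787, 5827 and 7568 CPM at 30 °C. Rank 5, OFAVBQ_DN209870_c1_g2, was the most even of these, with 3119.8, 4773 and 6181 CPM at 32 °C and 3370.2, 4554 and 6785 CPM at 30 °C. For neither temperature nor site did these 5 rows, with rank 3 described by genotype below, pass the test.

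Membership was stable for most rows but not for all. In their own top 100 by CPM, libraries held between 49 and 93 of the 100 members, with a median of 86. Of the members, 24 were in the top 100 of all 55 libraries, 55 in that of at least 50 libraries, and 6 in that of fewer than 28. Ranking by the median in place of the mean kept 96 of 100. The highest library exceeded the lowest by less than 3-fold for 45 members, by over 10-fold for 23 and by over 100-fold for 4, all on CPM + 1. The steadiest were rank 55, OFAVBQ_DN221262_c4_g1, at 1.53-fold, and rank 91, OFAVBQ_DN217788_c2_g1, at 1.56-fold. The 4 members over 100-fold were ranks 8, 47, 37 and 63. Every member but 1 had at least 1 count in every library.

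Rank 8, OFAVBQ_DN222743_c1_g1, owed its rank to a few libraries. Its median was 16.7 CPM against a mean of 3559 CPM, and 98.1% of its summed CPM came from 7 libraries. These were coral B1 at the offshore site at 32 °C with 53977 CPM, C3 offshore 30 °C with 41858, B6 offshore 30 °C with 27461 and B3 offshore 30 °C with 23532. The remaining 3 were B3 inshore 32 °C with 18351.5 CPM, C2 inshore 32 °C with 13553 and B6 inshore 30 °C with 13374. The next library, C6 offshore 32 °C, had 1301 CPM and B1 offshore 30 °C had 1114, while 44 libraries had under 100 CPM. Of the 7 libraries, 3 were at 32 °C and 4 at 30 °C, and 4 had been kept offshore and 3 inshore. They came from 5 corals, with at most 2 fragments of any coral. Coral B3, for example, had 22.7 CPM offshore and 18351.5 CPM inshore at 32 °C, but 23532 CPM offshore and 6.59 CPM inshore at 30 °C. Their library numbers ran from 13 to 55 and their host totals from 3781534 to 5872218, inside the range of all libraries. Rank 47, OFAVBQ_DN222743_c1_g3, bears the same assembly cluster number and followed rank 8 with a correlation of log2(CPM + 1) of 0.978 over the 55 libraries. Reads shared between 2 such rows of one cluster can be split by the quantifier, so their separate levels are uncertain.

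**Figure D2:**
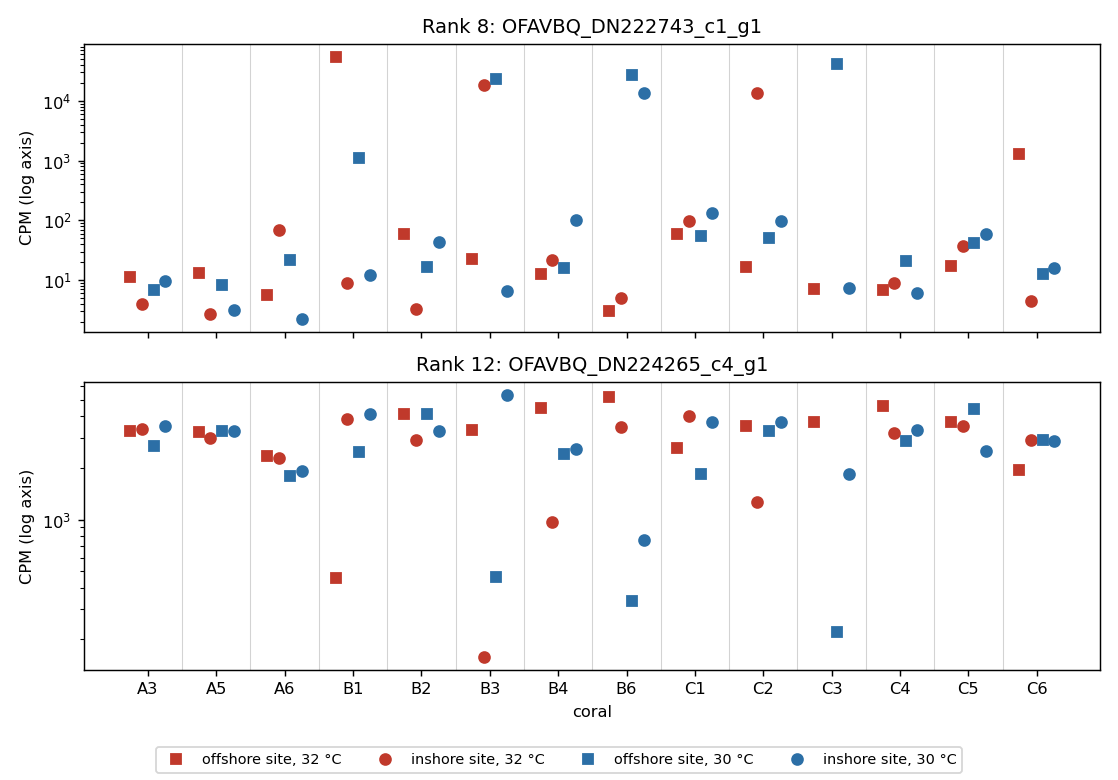
CPM on a log axis for rank 8 (upper panel) and rank 12 (lower panel) in each of the 55 libraries, by coral, with symbols for transplant site and temperature. Rank 8 was at 13374 CPM or above in 7 libraries of 5 corals, and in these rank 12 was between 158 and 1273 CPM, against a median of 3195 CPM over all libraries.

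Other members varied with rank 8, in the same or the opposite direction. Grouping by average linkage on 1 minus the correlation of log2(CPM + 1), cut at 0.4, gave 3 blocks of at least 10 members and left 48 members in none. The blocks were found in these data, so no test was made of them. Block A had 20 members with a median pairwise correlation of 0.805, among them rank 4 and ranks 12, 14 and 19. Block B had 12 members with a median of 0.709, led by rank 8, and block C had 20 with a median of 0.838, led by rank 40. Between blocks A and B the median correlation was -0.56. All such values are descriptions over 55 libraries that share their depth scaling, in which a gain of one row lowers the CPM of others.

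Block B held 9.33% of host counts in B1 offshore 32 °C, 7.90% in C3 offshore 30 °C, 7.08% in B6 offshore 30 °C and 5.88% in B3 offshore 30 °C. It held 5.64% in B3 inshore 32 °C, 4.41% in B6 inshore 30 °C and 3.84% in C2 inshore 32 °C. In none of the other 48 libraries did it exceed 1.87%. Block A held 0.755% in B3 inshore 32 °C, 1.23% in C3 offshore 30 °C, 1.28% in B6 offshore 30 °C, 1.53% in B1 offshore 32 °C and 1.67% in B3 offshore 30 °C. It held 2.58% in B6 inshore 30 °C and 2.98% in C2 inshore 32 °C, where the other 48 libraries had 1.79% to 4.55%. The 3 members most alike were all of block A. Rank 12, OFAVBQ_DN224265_c4_g1, and rank 14, OFAVBQ_DN222523_c0_g1, had a correlation of 0.997, and rank 14 and rank 19, OFAVBQ_DN224073_c1_g5, of 0.996. The 7 libraries also had low correlations with the others over the 100 members, from 0.0277 to 0.223, where the other 48 had at least 0.509 and the median over all was 0.765. Of the 7, 5 were among the 8 that stood apart over all rows. Rank 74, OFAVBQ_DN223455_c2_g1, a member of block B, was in the top 100 of 11 libraries, with 6906 CPM in B3 inshore 32 °C, 5422 in B6 offshore 30 °C and 4677 in B1 offshore 32 °C.

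The pattern was not confined to the 100 members. Among the other 35119 rows that entered the test, 295 had a correlation of at least 0.8 with rank 8 and 59 of at most -0.8. For rank 4, the leading row of block A, the counts were 214 and 40. For rank 40, in block C, they were 44 and 0. What sets these libraries apart was not tested.

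**Figure D3:**
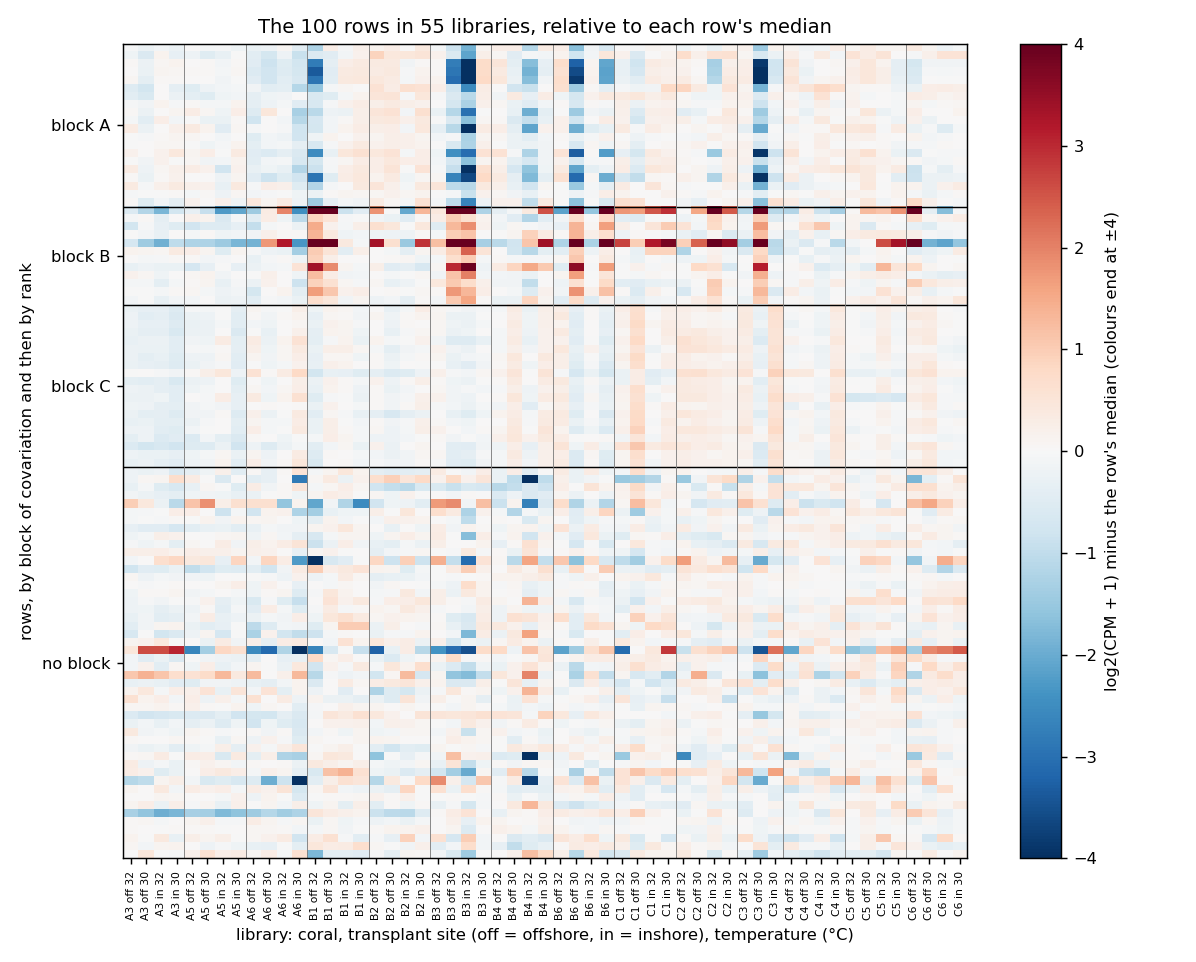
Heat map of log2(CPM + 1) minus each row's own median (colour, ending at ±4) for the 100 rows, ordered by block and then by rank, in the 55 libraries ordered by coral. In 7 libraries block B as a whole held 3.84% of host counts or more, against at most 1.87% in the other 48. Block A as a whole had a median of 1.53% in the 7, against 3.59% in the other 48. Not every row of block A was low there: rank 42 was at its highest in C2 inshore 32 °C and rank 93 in B6 inshore 30 °C. Block C varies less and more by coral.

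The first comparison asked which of the members responded to the higher temperature. Of 100 members, 8 passed the edgeR quasi-likelihood test with coral as a block at a Benjamini-Hochberg adjusted p under 0.05, 4 higher and 4 lower at 32 °C, where 3.23% of the 35219 rows tested passed (1.82% higher and 1.42% lower). At an unadjusted p under 0.05 there were 15 members, or 15%, against 15.6% of all rows, a share near the background. The members' changes were small. Their median log2 change was 0.00, with a range of -0.90 to 0.76, and their median absolute change was 0.073 against 0.115 over all rows. No member changed by more than 1 on the log2 scale, as 0.982% of all rows did.

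Rank 98, OFAVBQ_DN217505_c2_g1, had 403, 858 and 1541 CPM as its lowest, median and highest of 27 libraries at 32 °C, and 422, 599.8 and 1096 CPM of 28 libraries at 30 °C. The temperatures overlapped, but within corals 23 of 27 pairs were higher at 32 °C. Its fitted change was 1.48-fold (log2 0.57 ± 0.098 SE, adjusted p = 0.000401, edgeR). Rank 83, OFAVBQ_DN207047_c0_g2, had 463, 1003 and 1632 CPM at 32 °C and 522, 715 and 1182 CPM at 30 °C, and was higher at 32 °C in 24 of 27 pairs (1.33-fold, log2 0.41 ± 0.084 SE, adjusted p = 0.00247, edgeR). These 2 rows bear different assembly cluster numbers but were each other's most similar member, with a correlation of 0.949 over the 55 libraries. The conditions within origins made up 39.5% of the variance of rank 98 over all libraries, the largest such share among the 100 members. The other 2 higher members were rank 53 (log2 0.34, adjusted p = 0.00957, edgeR, higher in 22 of 27 pairs) and rank 36 (log2 0.26, adjusted p = 0.00981, higher in 21 of 27). Rank 53 was most like rank 83, at a correlation of 0.603.

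Rank 43, OFAVBQ_DN206249_c1_g3, had 579, 1052 and 1655 CPM at 32 °C and 545, 1299 and 2227 CPM at 30 °C. It was lower at 32 °C in 20 of 27 pairs (log2 -0.34 ± 0.079 SE, adjusted p = 0.0111, edgeR). Rank 51, OFAVBQ_DN214845_c4_g1, had 456, 962 and 2773 CPM at 32 °C and 747, 1213 and 1873 CPM at 30 °C, with 24 of 27 pairs lower (log2 -0.31 ± 0.090 SE, adjusted p = 0.0428, edgeR). Its highest library, at 2773 CPM, was B4 inshore 32 °C, one of those that stood apart. The call of rank 51 was lost when any of 11 of the 14 corals was left out. Rank 87 was lower in 23 of 27 pairs (log2 -0.25, adjusted p = 0.0359, edgeR) and had correlations of 0.656 with rank 51 and 0.655 with rank 43. The smallest change that passed was in one of the steadiest rows. Rank 91 had 659, 805 and 1032 CPM at 32 °C and 724, 887 and 973 CPM at 30 °C, lower at 32 °C in 22 of 27 pairs (log2 -0.12 ± 0.033 SE, adjusted p = 0.0257, edgeR).

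These calls rest in part on the libraries numbered 1 to 16, all at 30 °C, which are 16 of the 28 libraries at that temperature. Among libraries 17 to 56 alone, 0 members passed, where 50 of 42361 rows did. That setting also has fewer controls, so library number and the loss of controls cannot be told apart. Rank 98 was at a log2 change of 0.62 there (adjusted p = 0.168, edgeR), beside 0.57 over all libraries. Rank 83 was at 0.42 (adjusted p = 0.320, edgeR), beside 0.41. Rank 43 was at -0.28 there (adjusted p = 0.425, edgeR), beside -0.34, and rank 51 at -0.14 (adjusted p = 0.852), beside -0.31. With a term for numbers 1 to 16 beside the coral block 2 members passed, where 261 of 35219 rows did. Rank 98 was among them at 0.66 (adjusted p = 0.0154, edgeR). Rank 83 missed the threshold at 0.44 (adjusted p = 0.0744, edgeR), as did rank 43 at -0.30 (adjusted p = 0.261) and rank 51 at -0.19 (adjusted p = 0.620). Without the 8 libraries that stood apart, 15 members passed, where 1993 of 35506 rows did, against 1139 of 35219 rows with all libraries.

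By origin and site, few members passed. Among offshore-origin corals at the offshore site 0 members passed, where 0.162% of all rows did (smallest adjusted p = 0.195, edgeR). At an unadjusted p under 0.05 there were 13 members, against 9.58% of all rows. At the inshore site 0 passed too, with 0% of all rows (5 members and 4.48% of all rows unadjusted). Among inshore-origin corals at the offshore site 0 passed, with 0.00852% of all rows (6 members and 5.94% of all rows unadjusted, smallest adjusted p = 0.688, edgeR). Among inshore-origin corals at the inshore site 2 members passed, both higher, where 0.67% of all rows did, 0.517% higher. They were rank 98, with 534, 931 and 1426 CPM at 32 °C and 422, 612 and 708 CPM at 30 °C (log2 0.79 ± 0.18 SE, adjusted p = 0.028, edgeR), and rank 83, with 656, 1156 and 1523 CPM at 32 °C and 522, 757 and 884 CPM at 30 °C (log2 0.64 ± 0.153 SE, adjusted p = 0.0363). Both were higher in 8 of 8 corals. Leaving out coral A3, B2, B3, B4 or B6 ended both calls, and leaving out A5, A6 or C2 ended that of rank 83 (adjusted p = 0.0724, 0.0591 and 0.0525, edgeR). Without the 8 libraries that stood apart both calls were lost, at an adjusted p of 0.0753 for rank 98 and 0.0938 for rank 83 (edgeR). Whether the temperature change differed between groups was tested directly. By origin 0 members passed, with 0% of all rows (edgeR), and at an unadjusted p under 0.05 there were 3 members, against 4.99% of all rows. By site 0 passed, with 0% of all rows, and unadjusted there were 11 members, against 5.83% of all rows.

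**Figure D4:**
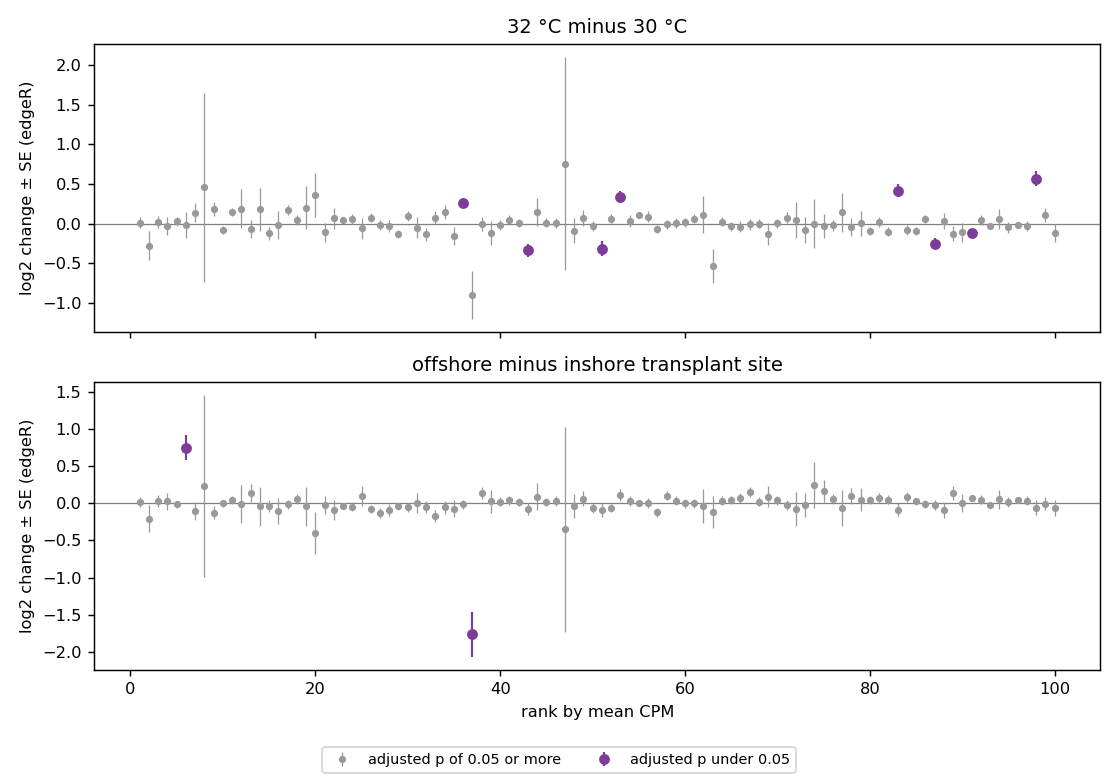
Fitted log2 change ± SE (edgeR) of each of the 100 members, by rank of mean CPM, for 32 °C minus 30 °C (upper panel) and offshore minus inshore transplant site (lower panel). Larger purple points passed an adjusted p under 0.05, 8 for temperature and 2 for site, and the widest bars are those of ranks 8 and 47.

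The second comparison asked which members differed between transplant sites. Here 2 of 100 members passed, 1 higher and 1 lower at the offshore site, where 0.378% of all rows did (0.15% higher and 0.227% lower). Unadjusted, 7 members passed, against 5.49% of all rows. Rank 37, OFAVBQ_DN197209_c0_g3, had 71.9, 309 and 4915 CPM as its lowest, median and highest of 28 libraries at the offshore site, and 31.8, 1340.1 and 6575 CPM of 27 libraries at the inshore site. The ranges overlapped, and 22 of 27 coral pairs were lower at the offshore site. Its fitted change was 3.40-fold lower (log2 -1.77 ± 0.299 SE, adjusted p = 0.000219, edgeR). In corals of offshore origin at 32 °C the sites did not overlap: C1 to C6 had 93.7 to 452 CPM offshore, and the 5 corals with an inshore library had 881 to 3483 CPM inshore. At 30 °C the 6 corals had 71.9 to 3016 CPM offshore, overlapping 1340.1 to 5664 CPM inshore. In the offshore-origin corals rank 37 was the 1 member that passed, where 0.369% of all rows did and 0.202% were lower, with 10 of 11 pairs lower (log2 -2.05 ± 0.456 SE, adjusted p = 0.0177, edgeR). That call was lost when C1, C5 or C6 was left out. In inshore-origin corals 0 members passed, with 0.119% of all rows (8 members and 8.80% of all rows unadjusted, smallest adjusted p = 0.0685, edgeR). The difference of the site change between origins passed for 0 members and 0.324% of all rows (5 members and 8.67% of all rows unadjusted). For temperature, rank 37 had a log2 change of -0.90 ± 0.297 SE that missed the threshold (adjusted p = 0.088, edgeR).

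Rank 6, OFAVBQ_DN214732_c1_g4, was the member higher at the offshore site. It had 774, 4178 and 12025 CPM at the offshore site, against 501, 2411 and 7535 CPM at the inshore site, and 20 of 27 coral pairs were higher offshore (1.68-fold, log2 0.75 ± 0.165 SE, adjusted p = 0.0151, edgeR). The groups overlapped widely, and leaving out A5, C3, C4 or C6 ended the call. Rank 69, OFAVBQ_DN214732_c1_g1, bears the same assembly cluster number but followed another course, with a correlation of 0.164 to rank 6, and had 326, 891 and 2082 CPM at the offshore site, against 211, 843 and 2572 CPM at the inshore site. Among libraries numbered 17 to 56 alone no member passed for site, with ranks 37 and 6 at log2 changes of -1.77 and 0.83 (adjusted p = 0.262 and 0.662, edgeR).

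For origin, counts were summed per genotype and 6 offshore-origin genotypes were set against 6 inshore-origin ones. None of the 100 members passed, as 0% of the 39603 rows tested did, while DESeq2 called 2 members, its share over all rows not being given here. At an unadjusted p under 0.05 there were 17 members, and 5.15% of all rows. The members' median log2 difference was 0.07, against -0.01 over all rows. Of the members, 67 of 100 were higher in offshore-origin genotypes, against 48.8% of all rows. Many members vary together in blocks, so these 67 are not independent. Rank 5 had a difference of 0.20 ± 0.119 SE, with 3476, 5057 and 6785 CPM in 23 offshore-origin libraries and 3119.8, 4226 and 5712 CPM in 32 inshore-origin libraries. Since all offshore-origin corals came from 1 collection site, origin and that site cannot be told apart.

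The third question was how far the members differed between corals of an origin. The F test of the coral terms passed for 56 of 100 members and for 66.6% of all rows. The members' share was also the smaller with each coral left out, with In1 summed (44 members, 64.1% of all rows) and among libraries 17 to 56 (40 members, 49.3%). The order was reversed in a few settings. Without the libraries that stood apart 67 members passed, where 65.2% of all rows did, and without the 7 libraries with a low member correlation 69 passed, where 63.7% did. DESeq2 called 68 members and 37.3% of the unfiltered rows. Without its low-count filter edgeR called 56 members and also 37.3% of rows, so these 2 reversals come with a wider set of rows. Here the fragments are the units, and the p-values speak of these 14 corals. Of the variance of log2(CPM + 1), the part between the 14 corals had a median of 38.7% over the members, with a range of 17.5% to 87.2%, against 50.6% over all rows and 38.5% over the next 100 rows. It exceeded 50% for 20 of 100 members and for 50.9% of all rows. Unlike the F test, this part includes the difference between origins. Conditions within origins took a median of 7.72% in the members and 6.59% in all rows, with 13 degrees of freedom for corals and 6 for conditions out of 54.

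**Figure D5:**
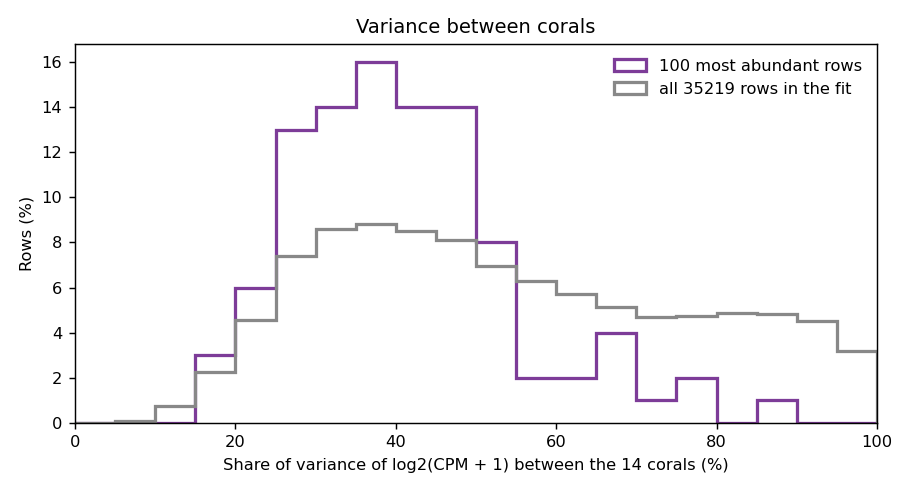
Distribution of the share of variance of log2(CPM + 1) that lay between the 14 corals (x axis, %), as a percentage of rows (y axis), for the 100 most abundant rows and for all rows in the fit. The members' distribution has its median at 38.7%, below the 50.6% of all rows, and few members in the upper tail.

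The most coral-bound member was rank 89, OFAVBQ_DN198445_c7_g1, with 87.2% of its variance between corals. Its 12 libraries of genotype In1 had 234 to 412 CPM with a median of 347, and the 4 libraries of In5 had 435 to 635 CPM. In every other genotype all libraries were at 614 CPM or higher, up to 1847 CPM in O6. The In1 range held for all 3 corals of that genotype, whose means were 292, 322 and 374 CPM. Rank 3, OFAVBQ_DN222940_c3_g1, followed with 79.2%. Genotypes In5, In6 and In7 had means of 3263 ± 468, 3609 ± 306 and 3219 ± 519 CPM (SD, 4 libraries each), while O6 had 7912 ± 1459 and O4 7563 ± 859 (SD, 4 each). The 3 lowest genotypes did not differ beyond their spread. The least coral-bound members were rank 58, OFAVBQ_DN212946_c2_g2, at 17.5%, and rank 15, OFAVBQ_DN212772_c0_g1, at 17.7%.

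Corals of one genotype label did not always agree. For rank 37, coral A3 had 1099.96 CPM offshore and 4919 inshore at 32 °C, and 4915 offshore and 6575 inshore at 30 °C. Coral A5 of the same genotype had 129.6 CPM offshore and 1434 inshore at 32 °C, and 309.7 offshore and 1251 inshore at 30 °C. Coral A6 had 137 CPM offshore and 346 inshore at 32 °C, and 92.2 offshore and 31.8 inshore at 30 °C. Each A3 value was above its A5 and A6 counterparts. Rank 63, OFAVBQ_DN220156_c0_g1, had 3.12 CPM in B4 inshore 32 °C, where the other 7 inshore-origin libraries of that group reached up to 1440.5 CPM, and the same library was the lowest for rank 2. In the 6 corals of offshore origin kept offshore, rank 63 had 182, 393 and 1139 CPM at 32 °C and 799, 1166 and 1553 CPM at 30 °C, and over all corals its change missed the threshold (log2 -0.53 ± 0.217 SE, adjusted p = 0.197, edgeR).

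How the counts were shared out among similar rows differs between members. Of the non-zero values, 39.8% were whole numbers among the members and 57.9% over the table, counting a value as whole only with a tolerance of 0. Values were whole in all 55 libraries for 18 members and in none for 10. Estimated counts that are not whole arise where a quantifier divides reads between rows. For 75 members the table holds other rows of the same assembly cluster, 147 rows in all. Sharing a cluster number did not settle this: rank 17 had another row in its cluster and was whole in all 55 libraries, while rank 34 was alone in its cluster and was whole in 0. The symbiont counts relative to the host's ran from -10.9 to -1.45 on the log2 scale among these libraries. This ratio had an absolute correlation over 0.5 with 1 member, rank 38, at -0.53 over 55 libraries. The symbiont counts bear a single name, trenchii, so whether they cover other symbionts is not known here. In offshore-origin corals the ratio ran from -4.22 to -1.45 at the inshore site and from -10.9 to -5.46 at the offshore site. In inshore-origin corals the sites overlapped, at -10.2 to -1.65 inshore and -9.84 to -1.57 offshore. Whether the members' site differences follow this ratio within an origin was not tested.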

How the data were processed

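The data are polyadenylated RNA sequencing libraries of whole coral tissue. Trimmomatic 0.36 and RSEM appear, with no stated role, in the submitters' processing notes, while the deposited tables carry the name of kallisto. The quantifier's version and reference assembly: not given in the sources used here. The authors deposited estimated counts per row without normalization, of which 74.7% of host values, zeros included, were whole (tolerance 0), and they were rounded before count tests. Each table holds 1 column that matched no label and was not used. CPM and shares were computed from column totals. Tests used edgeR 4.0.16 in R 4.3.3 on the whole host table: TMM factors, filterByExpr with a minimum count of 10, the quasi-likelihood F test and Benjamini-Hochberg adjustment over 35219 rows at 0.05. The model held coral as a block, because its fragments are 1 colony, and 3 condition terms per origin, each set against 30 °C at the inshore site, which left 35 residual degrees of freedom. For origin, counts were summed per genotype before testing. Standard errors are the absolute log2 change over the root of F.

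The identifiers named are the 5 most abundant members, up to 2 higher and 2 lower per comparison among those past the threshold, the 2 most and least variable, the 2 most and least coral-bound, the 2 with the lowest median and the most alike pairs. Ranks 63, 69 and 74 were added after their values were seen, as was the exclusion of 7 libraries with a member correlation under 0.5. Members and lists were chosen with earlier results of these data known. Alternatives were RLE factors, DESeq2 1.42.0, leaving off the low-count filter, no replicate block, counts of In1 corals summed, each coral left out, libraries numbered 17 to 56 alone, a term for numbers 1 to 16, and the libraries that stood apart left out. The temperature comparison was tried on simulated counts in which a temperature change was the only difference planted. It recovered 94% of rows changed 1.5-fold and 99% of those changed 3-fold, with 12 false calls and 32618 rows tested. Differences between corals, sites, origins or library numbers were not simulated, so the trial cannot speak of them.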

Additional observations from a re-analysis of the deposited data

Results flagged for a closer look

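Within each group of libraries, the highest and the lowest value of the share and of 24 named members were checked against the rest of the group (Dixon's ratio at its 95% critical value). Of 200 groups of values, 33 held such a value, or 16.5%. Some of the members were named for their wide range or after their values were seen, and all share the same libraries. This rate therefore cannot be set against chance. No explanation was weighed.

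The share of the 100 members in C1 offshore 32 °C, at 15.1%, lay below the other 5 libraries of its group, the nearest of which had 16.7%.

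Rank 8, OFAVBQ_DN222743_c1_g1, stood out in 6 groups, in B6 inshore 30 °C at 13374 CPM, B3 inshore 32 °C at 18351.5, B1 offshore 32 °C at 53977, C2 inshore 32 °C at 13553, C3 offshore 30 °C at 41858 and C6 offshore 32 °C at 1301 CPM. The nearest values in those groups lay between 55.2 CPM and 101.9 CPM. Rank 47, OFAVBQ_DN222743_c1_g3, stood out in the same 6 libraries, at 9981 CPM in B6 inshore 30 °C, 2028 in B3 inshore 32 °C, 10880.2 in B1 offshore 32 °C, 7853 in C2 inshore 32 °C, 8599.8 in C3 offshore 30 °C and 569 in C6 offshore 32 °C. Rank 74, OFAVBQ_DN223455_c2_g1, stood out in 4 of them, at 6906 CPM in B3 inshore 32 °C, 4677 in B1 offshore 32 °C, 4043 in C3 offshore 30 °C and 802 in C6 offshore 32 °C. In C3 offshore 30 °C rank 4, OFAVBQ_DN217768_c1_g1, was low at 2096 CPM and rank 91, OFAVBQ_DN217788_c2_g1, at 724 CPM.

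Rank 37, OFAVBQ_DN197209_c0_g3, was high in coral A3 in 3 of its groups, at 6575 CPM inshore and 4915 offshore at 30 °C and 4919 CPM inshore at 32 °C.

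Single values also stood out. Rank 3, OFAVBQ_DN222940_c3_g1, was low in C2 inshore 30 °C at 3166 CPM, and rank 5, OFAVBQ_DN209870_c1_g2, was high in B1 offshore 30 °C at 5712. Rank 15, OFAVBQ_DN212772_c0_g1, was low in B6 offshore 30 °C at 1576 CPM, and rank 55, OFAVBQ_DN221262_c4_g1, in C1 offshore 30 °C at 874. Rank 51, OFAVBQ_DN214845_c4_g1, was high in B4 inshore 32 °C at 2773 CPM and low in B2 offshore 32 °C at 456. Rank 58, OFAVBQ_DN212946_c2_g2, was low in B3 inshore 32 °C at 567.7 CPM. The remaining values were high ones: rank 63, OFAVBQ_DN220156_c0_g1, in B3 offshore 30 °C at 2552 CPM, rank 69, OFAVBQ_DN214732_c1_g1, in B1 inshore 32 °C at 2235, rank 83, OFAVBQ_DN207047_c0_g2, in C5 offshore 30 °C at 1053 and rank 89, OFAVBQ_DN198445_c7_g1, in C6 offshore 32 °C at 1847 CPM.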

How the results depend on the processing

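The share changes moved by less than the spread between corals or genotypes under all settings tried, but their sign did not always hold: choosing members by median CPM gave 0.06 points for temperature, -0.31 for site and 1.10 for origin (0.61 by mean CPM). Choosing by median CPM also set all 6 offshore-origin genotypes above every inshore-origin one. Leaving out each coral in turn gave -0.44 to -0.11 points for temperature and 0.24 to 0.52 for site, and leaving out each coral or genotype gave 0.29 to 0.87 for origin. Counts of members past the threshold moved more. For temperature (8, with 1139 of 35219 rows), there were 5 without the replicate block (321 of 35219 rows) and 0 among libraries 17 to 56 (50 of 42361 rows). There were 2 with the term for numbers 1 to 16 (261 of 35219 rows) and 15 without the libraries that stood apart (1993 of 35506 rows). The whole table thus moved with the members. Leaving out each coral gave 4 to 9, with 5 without B2, C2 or C6 and 4 without C4. Over all rows it gave 655 (without C6) to 1274 (without A6). The counts that follow, up to those for corals, are of members alone. From them, shifts of the members cannot be told from shifts of the whole table. For inshore-origin corals at the inshore site (2), In1 summed, libraries 17 to 56, no replicate block and leaving out the 7 libraries with a low member correlation each gave 0. Each coral left out gave 0 to 2. For offshore-origin corals at the offshore site (0), 4 passed without the libraries that stood apart and 0 to 2 with each coral left out, the 2 without B4. For site (2), In1 summed gave 1, and libraries 17 to 56 and no replicate block gave 0, with 1 to 2 over corals left out. Within inshore origin (0), DESeq2 gave 2, no low-count filter 1 and leaving out libraries that stood apart 1, with 0 to 1 over corals left out (1 without B2). Within offshore origin (1), libraries 17 to 56 and no replicate block gave 0 and leaving out libraries that stood apart gave 2, with 0 to 1 over corals left out. For origin (0), DESeq2 gave 2. The coral count (56, with 66.6% of all rows) was 40 among libraries 17 to 56 (49.3%) and 44 with In1 summed (64.1%). It was 67 without the libraries that stood apart (65.2%) and 69 without those with a low member correlation (63.7%). DESeq2 gave 68, with 37.3% of the unfiltered rows. With each coral left out there were 48 to 63, with 62.7% (without B2) to 66.7% (without C3) of all rows. The causes of these shifts were not tested. None of the 9 log2 changes followed across settings changed sign; rank 98 kept its temperature call with each coral left out and in 8 of 9 other settings, and rank 37 its site call with each coral left out and in 7 of 9. The setting without the replicate block also ended the temperature call of rank 51 and the site call of rank 6. The members' median counts had a median of 5374.5, but were as low as 21 for rank 47 and 86 for rank 8. Identifiers without names, and rows that share reads, limit what each row can be taken to be.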
